A study of Mus musculus with 9 samples.

Results

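The 10 genes described here encode the receptor, kinases and transcription factor through which interleukin-4 (IL-4) acts, together with genes that this pathway switches on or that restrain it. They are Il4ra, Il2rg, Jak1, Jak3, Stat6, Cish, Socs1, Socs3, Fcer2a and Bhlhe41, taken by symbol from the 45361 gene identifiers of the deposited count table. All 10 were present once, and all 10 passed the filter on low counts that left 12580 genes for testing. The RNA is from CH12F3, a B-lymphoma line of the mouse that is used to study immunoglobulin class switching. All 9 libraries came from cells with a Ligase4 knockout that had received IL-4, TGF-β and anti-CD40 as stimulation for 24 h, so every group was exposed to IL-4. There were 3 libraries with DMSO, the solvent control, 3 with tazemetostat, an inhibitor of the histone H3K27 methyltransferase EZH2, and 3 with valemetostat, which inhibits EZH1 and EZH2. The stated aim was to find transcriptional changes after either inhibitor. Neither the doses and exposure times of the inhibitors nor whether the knockout line is 1 clone is given in the sources used here.

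IL-4 binds the α chain of its receptor (Il4ra), which on lymphocytes pairs with the common γ chain (Il2rg). The chains carry the tyrosine kinases JAK1 and JAK3, which phosphorylate STAT6. STAT6 then dimerizes, enters the nucleus and binds paired half-sites of the form TTC and GAA. In B cells this raises the low-affinity IgE receptor CD23 (Fcer2a) and helps to start germline transcription before class switching. CISH, SOCS1 and SOCS3 belong to the suppressor of cytokine signalling family, which is induced by STAT factors and dampens their signals. Bhlhe41 encodes a basic helix-loop-helix repressor that binds E-boxes and is known from B-1 cells and the circadian clock.

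The libraries held 34080504 to 46675110 counts. Levels in a single library are given as CPM, a library's counts scaled to a common total, after TMM scaling, a correction for library composition. A gene is called changed at a Benjamini-Hochberg adjusted p under 0.05 in edgeR's quasi-likelihood test, adjusted over all 12580 genes. Errors of log2 fold changes are standard errors. By this rule 38.1% of all genes were called with tazemetostat (19.9% higher, 18.2% lower), 39.2% with valemetostat (20.5% higher, 18.7% lower) and 0.318% between the inhibitors (0.0636% higher with valemetostat, 0.254% lower). Markers of B cells (7 of 7 tested) summed to 2513 to 2738 TPM in the DMSO libraries, 2792 to 2873 with tazemetostat and 2921 to 3033 with valemetostat (the unit scaled for transcript length). The T cell markers summed to 0.91 to 5.18 TPM in DMSO, 1.11 to 1.72 with tazemetostat and 1.28 to 8.43 with valemetostat. In the myeloid list the sum was 11.6 to 16.1 TPM in DMSO, 12.7 to 13.6 with tazemetostat and 12.9 to 14.5 with valemetostat, with Cd14 at 0 counts in all libraries. Within that list Csf1r fell from 28.7 ± 1.48 to 21.6 ± 1.58 and 20.9 ± 2.09 CPM, Adgre1 rose from 2.80 ± 0.197 to 8.25 ± 0.695 and 7.03 ± 0.614 CPM, Lyz2 went from 3 counts in the DMSO group to 167 and 145, and Itgam was not called. The erythroid markers summed to 2.93 to 3.48 TPM in DMSO, 4.68 to 5.58 with tazemetostat and 3.99 to 6.19 with valemetostat, so that DMSO overlapped neither inhibitor group. The stromal and epithelial markers summed to 0.26 to 0.94 TPM, with Col1a2 at 0 counts. The 6 mast cell and basophil markers summed to at most 0.52 TPM in DMSO, 5.83 to 6.25 TPM with tazemetostat and 3.53 to 4.98 TPM with valemetostat. Only Fcer1a of that list was tested, and Cpa3 and Mcpt8 were at 0 counts throughout. Fcer1a alone made up nearly all of the sum, at 5.83 to 6.25 TPM with tazemetostat and 3.52 to 4.98 TPM with valemetostat. The part of such cells in the results was not tested. In bulk RNA, fewer cells of a type and less RNA per cell cannot be told apart.

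The 10 genes spanned a wide range of expression, shown in the plot of levels per transcript length. In DMSO the γ chain gene Il2rg stood first at 139 ± 5.15 TPM (SD, n = 3), above 92.2% of tested genes. Fcer2a followed at 73.3 ± 3.09 TPM and Stat6 at 50.9 ± 2.19 TPM. The kinases lay close together, with Jak1 at 37.9 ± 2.76 and Jak3 at 31.8 ± 2.84 TPM. Jak3 and its neighbour Bhlhe41, at 31.0 ± 1.24 TPM, overlapped between libraries. Socs1 was at 25.3 ± 1.25 TPM, Il4ra at 14.7 ± 1.74 TPM, Cish at 6.40 ± 0.287 TPM and Socs3 at 2.03 ± 0.217 TPM. The receptor chains were thus unequal, with 9.52 ± 0.879 Il2rg transcripts per Il4ra transcript in DMSO, 9.98 ± 1.30 with tazemetostat and 9.72 ± 0.725 with valemetostat. With either inhibitor Fcer2a moved above Il2rg to the first place, at 178 ± 12.1 TPM with tazemetostat and 174 ± 15.7 TPM with valemetostat. Cish stayed below Il4ra in mean level, and overlapped it with valemetostat. Bhlhe41 dropped to the level of Socs1 with tazemetostat, where the libraries of these 2 genes overlapped.

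**Figure D1:**
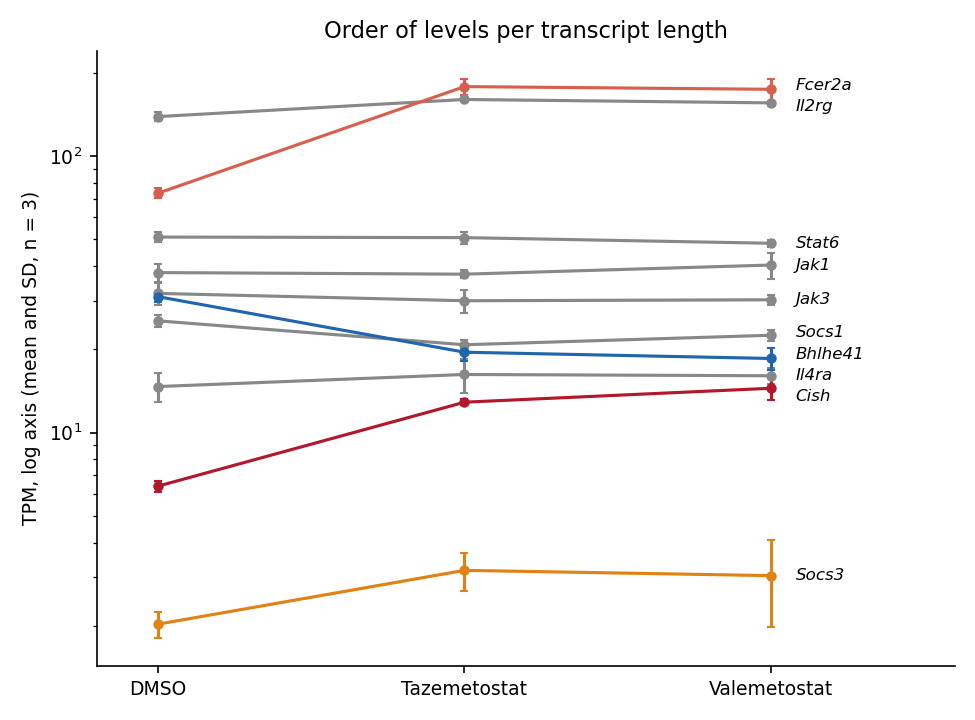
Mean TPM (log axis) of the 10 genes in the 3 groups, with bars of 1 SD (n = 3). Fcer2a rises from 73.3 to 178 and 174 TPM and passes Il2rg, while Cish and Socs3 rise from lower levels and Bhlhe41 falls.

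Of the receptor chains, the shared γ chain rose with both inhibitors. Il2rg measured 128, 134 and 139.7 CPM in the DMSO libraries, 167, 174 and 171 CPM with tazemetostat, and 166, 164 and 163 CPM with valemetostat. Every inhibitor library lay above every DMSO library. The log2 fold change was 0.35 ± 0.05 with tazemetostat (edgeR adjusted p = 7.96e-07) and 0.30 ± 0.05 with valemetostat (edgeR adjusted p = 7.69e-06). By limma-trend on the deposited log2(TPM + 1) table the rise of Il2rg was smaller, at 0.20 and 0.16, and still called (adjusted p = 0.00583 and 0.0153). An offset for transcript length and GC content gave 0.25 and 0.18. The specific chain, Il4ra, measured 42.1, 47.5 and 42.2 CPM in DMSO, 43.0, 51.3 and 51.3 CPM with tazemetostat, and 50.1, 55.2 and 47.3 CPM with valemetostat. One DMSO library reached into the range of each inhibitor group, so the groups overlapped. Il4ra differed by 0.14 ± 0.07 with tazemetostat, short of the threshold (edgeR adjusted p = 0.133), and rose by 0.21 ± 0.07 with valemetostat (edgeR adjusted p = 0.0266).

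The kinases and STAT6 stayed near their DMSO levels. Jak1 ranged from 129.8 to 141 CPM in DMSO, from 139.7 to 141 CPM with tazemetostat and from 141 to 148 CPM with valemetostat. Its log2 difference was 0.06 (95% interval -0.03 to 0.16) with tazemetostat and 0.10 (0.0036 to 0.19) with valemetostat, and neither passed after adjustment (edgeR adjusted p = 0.295 and 0.0938). Jak3 ranged from 85.6 to 97.1 CPM in DMSO, 84.6 to 97.9 CPM with tazemetostat and 87.8 to 96.3 CPM with valemetostat, with group means of 92.4, 91.7 and 93.02 CPM. The intervals of its log2 difference, -0.13 to 0.11 and -0.11 to 0.13, bound the change that these libraries allow in either direction. Stat6 measured 137, 141 and 138 CPM in DMSO, 152, 139.8 and 147 CPM with tazemetostat and 137, 138 and 144 CPM with valemetostat. These groups overlapped. For Stat6 the log2 difference was 0.08 ± 0.05 with tazemetostat and 0.01 ± 0.05 with valemetostat (edgeR adjusted p = 0.193 and 0.867).

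**Figure D2:**
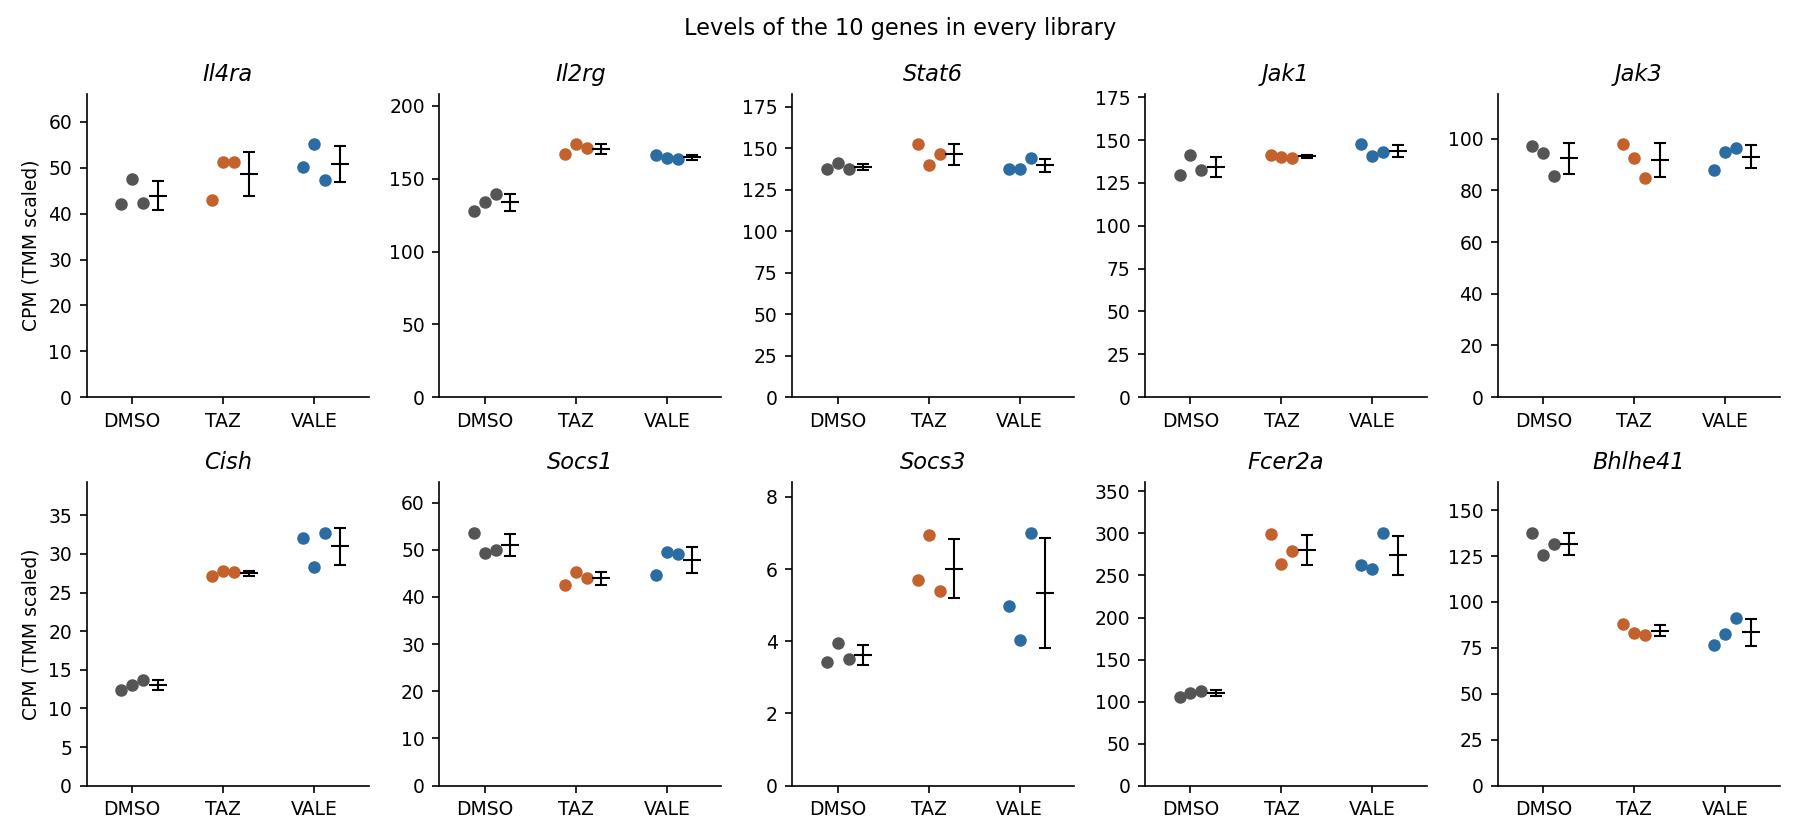
CPM (linear axes from 0) of each gene in every library, as points by group (TAZ, tazemetostat; VALE, valemetostat), with the group mean and 1 SD (n = 3) beside them. Fcer2a, Cish, Socs3, Il2rg and Bhlhe41 separate the DMSO libraries from both inhibitor groups, and Stat6, Jak1, Jak3 and Il4ra do not.

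Fcer2a, the CD23 gene and a classical IL-4 target in B cells, rose with both inhibitors. It measured 106, 111 and 113 CPM in DMSO, 299, 264 and 279 CPM with tazemetostat, and 263, 258 and 301 CPM with valemetostat. The lowest inhibitor library was at more than 2 times the highest DMSO library. The log2 fold change was 1.35 ± 0.06 with tazemetostat, a 2.56-fold rise (95% interval 2.36 to 2.77), and 1.32 ± 0.06 with valemetostat, a 2.50-fold rise (2.30 to 2.71). The edgeR adjusted p was 5.28e-15 and 7.72e-15. Of all tested genes, 5.88% changed more with tazemetostat and 6.06% with valemetostat.

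Cish, a feedback inhibitor named for its SH2 domain, rose from a low level. Its libraries measured 12.4, 13.0 and 13.7 CPM in DMSO, 27.2, 27.8 and 27.6 CPM with tazemetostat, and 32.0, 28.3 and 32.8 CPM with valemetostat. All 6 inhibitor libraries lay above the DMSO libraries, and the 3 valemetostat libraries above the 3 tazemetostat libraries. The inhibitor groups did not overlap for 14.1% of all tested genes. Tazemetostat gave a log2 fold change of 1.08 ± 0.08, or 2.12-fold (1.89 to 2.37), and valemetostat 1.26 ± 0.08, or 2.39-fold (2.13 to 2.68). The edgeR adjusted p was 5.43e-11 and 2.84e-12. Relative to Socs1, Cish went from 0.253 ± 0.0217 transcripts per Socs1 transcript in DMSO to 0.620 ± 0.0133 with tazemetostat and 0.645 ± 0.0751 with valemetostat, by TPM.

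The other suppressors moved in opposite directions. Socs3, an inhibitor best known for its action on gp130 receptors, measured 3.44, 3.94 and 3.50 CPM in DMSO, 5.69, 6.94 and 5.39 CPM with tazemetostat, and 4.98, 4.03 and 7.01 CPM with valemetostat. The groups did not overlap, although valemetostat 2 stood close to the highest DMSO library. These levels rest on 125 to 298 counts per library. The log2 fold change of Socs3 was 0.73 ± 0.18 with tazemetostat and 0.56 ± 0.18 with valemetostat (edgeR adjusted p = 0.00236 and 0.017). Socs1, which binds and inhibits JAK kinases, measured 53.6, 49.3 and 50.01 CPM in DMSO, 42.6, 45.3 and 44.0 CPM with tazemetostat, and 44.6, 49.6 and 49.2 CPM with valemetostat. The tazemetostat libraries lay below all DMSO libraries, and valemetostat 2 overlapped them. Socs1 fell by 0.22 ± 0.06 on the log2 scale with tazemetostat (edgeR adjusted p = 0.00804). With valemetostat its difference was -0.10 ± 0.06, which did not pass (edgeR adjusted p = 0.239).

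Bhlhe41 fell with both inhibitors. It measured 138, 126 and 131 CPM in DMSO, 88.0, 83.3 and 82.0 CPM with tazemetostat, and 76.8, 82.5 and 91.0 CPM with valemetostat. Every inhibitor library was below every DMSO library by more than the spread within either group. The log2 fold change was -0.64 ± 0.06 with tazemetostat, or 0.641-fold (0.591 to 0.696), and -0.66 ± 0.06 with valemetostat, or 0.634-fold (0.584 to 0.688). The edgeR adjusted p was 1.72e-09 and 1.11e-09.

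Counted together, 6 of the 10 genes were called with tazemetostat (4 higher, 2 lower) and 6 with valemetostat (5 higher, 1 lower), against 38.1% and 39.2% of all genes. Groups did not overlap for 6 and 5 of the 10, against 47.4% and 48.5% of all genes. The median log2 fold change was 0.11 and 0.15, and 0.00079 and 0.0073 over all tested genes. Fcer2a and Cish were the members changed at least 2-fold. The comparisons with DMSO share their control libraries.

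**Figure D3:**
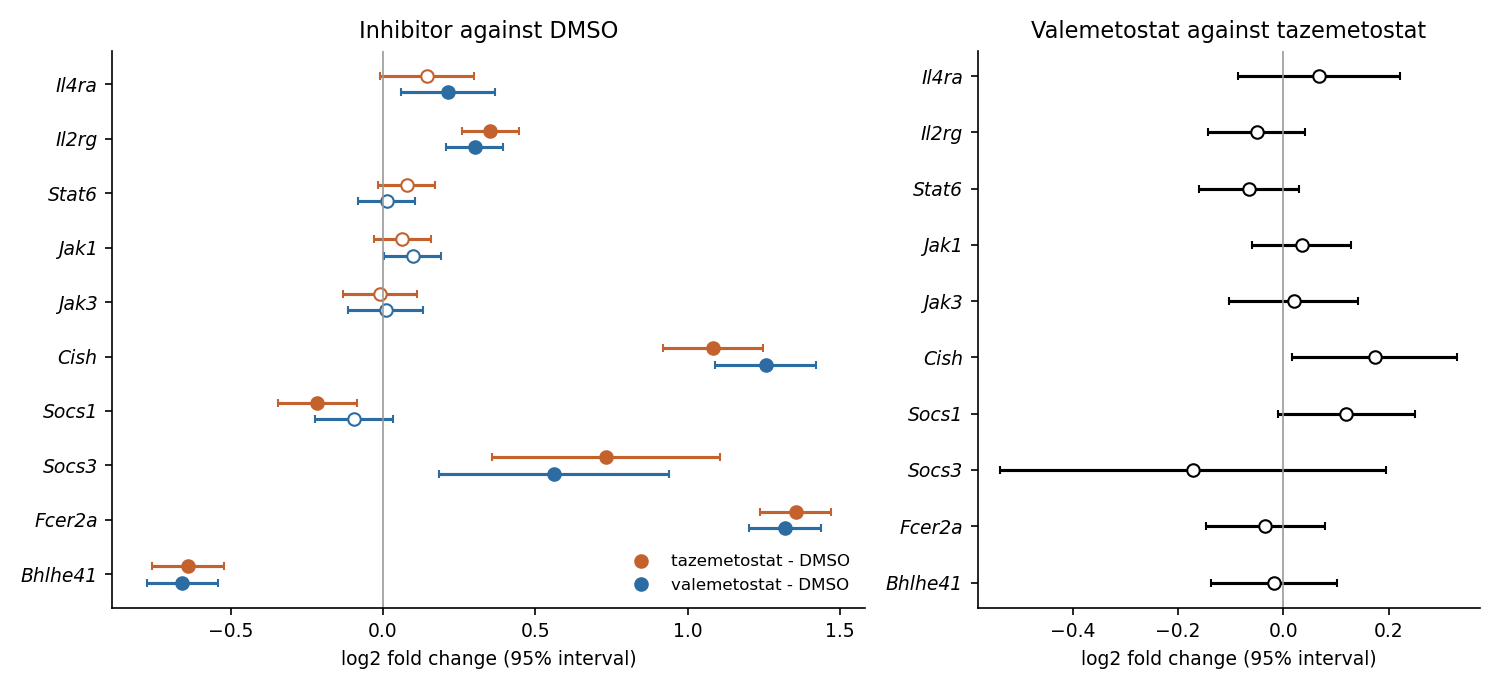
Log2 fold changes of the 10 genes with 95% intervals, on the left for each inhibitor against DMSO and on the right for valemetostat against tazemetostat; filled points have an adjusted p under 0.05. Fcer2a and Cish lie above 1 with both inhibitors, Bhlhe41 at -0.64 and -0.66, and no point on the right is filled.

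Promoter windows from RefSeq (build GRCm38.p6, another build than the mm9 of the deposited files) were searched for spaced half-sites of STAT factors. Each window holds 250 bases before and 50 after an annotated start. All 10 genes had an entry, with 12 windows in all because Fcer2a has 3 starts. The motif with a spacer of 4 bases between TTC and GAA, which STAT6 binds, was in 1 window, the second of Fcer2a, and in 6.95% of 32851 windows of all genes. The motif with a spacer of 3 bases, TTCNNNGAA, bound by several STAT factors, was in 2 windows, those of Cish and Socs3, and in 8.30% of all windows. Both motifs equal their own reverse complements, so both strands were covered. In Cish there were 2 matches, beginning at the start site and 11 bases after it. At least 2 matches of TTCNNNGAA were found in 0.457% of all windows, a count that was not planned before the search. The windows of the 3 genes that rose and hold a match, and of Bhlhe41, which fell, are shown 5′ to 3′ on the coding strand. Capitals mark the STAT motifs in the first 3 and a CACGTG E-box, the sequence that BHLHE41 itself can bind, in the last.
Cish, chr9:107296409-107296708, plus strand: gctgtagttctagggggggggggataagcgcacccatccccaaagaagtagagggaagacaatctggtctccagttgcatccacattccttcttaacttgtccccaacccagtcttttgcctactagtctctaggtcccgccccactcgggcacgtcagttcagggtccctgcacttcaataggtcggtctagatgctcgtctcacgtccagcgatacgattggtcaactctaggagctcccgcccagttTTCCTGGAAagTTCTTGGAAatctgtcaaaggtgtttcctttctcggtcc
Socs3, chr11:117969317-117969616, minus strand: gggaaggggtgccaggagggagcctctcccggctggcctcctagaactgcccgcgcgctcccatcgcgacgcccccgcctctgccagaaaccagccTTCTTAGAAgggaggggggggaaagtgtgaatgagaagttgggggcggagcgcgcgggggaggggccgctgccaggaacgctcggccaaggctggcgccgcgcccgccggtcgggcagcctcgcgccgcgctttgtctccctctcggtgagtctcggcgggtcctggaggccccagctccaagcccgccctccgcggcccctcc
Fcer2a, second start, chr8:3690812-3691111, minus strand: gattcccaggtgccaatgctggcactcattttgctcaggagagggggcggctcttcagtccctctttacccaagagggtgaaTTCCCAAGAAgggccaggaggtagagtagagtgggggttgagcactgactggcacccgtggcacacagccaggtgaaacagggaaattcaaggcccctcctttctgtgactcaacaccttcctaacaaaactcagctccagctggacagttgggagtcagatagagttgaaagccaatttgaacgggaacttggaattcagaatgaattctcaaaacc
Bhlhe41, chr6:145865371-145865670, minus strand: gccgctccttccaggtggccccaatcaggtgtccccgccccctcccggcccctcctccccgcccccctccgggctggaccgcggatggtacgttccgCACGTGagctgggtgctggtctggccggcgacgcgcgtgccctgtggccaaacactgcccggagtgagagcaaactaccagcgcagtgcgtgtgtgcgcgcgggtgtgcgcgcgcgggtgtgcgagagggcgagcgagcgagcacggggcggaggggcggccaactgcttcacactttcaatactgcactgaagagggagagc
The Socs3 match began 154 bases before the start and the Fcer2a match 168 bases before the second start. The E-box of Bhlhe41 began 153 bases before the start and was searched for after the sequence had been seen. CACGTG was in no other window of the 10 genes and in 7.15% of all windows. Il4ra, Il2rg, Stat6, Jak1, Jak3 and Socs1 held neither STAT motif in these windows. A match is a description of the sequence. Which of the Fcer2a starts was used in these cells was not tested.

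The inhibitors were compared directly for each of the 10 genes, 10 comparisons whose p-values were adjusted over all 12580 genes. None passed in edgeR, where 1 gene, Cish, had an unadjusted p under 0.05. DESeq2 also called none, with 1 gene at an unadjusted p under 0.05, and limma-trend on log2(TPM + 1) called none, with 0 such genes. Valemetostat minus tazemetostat was 0.17 ± 0.08 for Cish (95% interval 0.02 to 0.33, edgeR adjusted p = 0.554). For Fcer2a it was -0.03 ± 0.06 (-0.15 to 0.08) and for Bhlhe41 -0.02 ± 0.06 (-0.14 to 0.10). For Socs1, called with tazemetostat alone, the difference between the inhibitors was 0.12 ± 0.06 (-0.01 to 0.25). For Il4ra, called with valemetostat alone, it was 0.07 ± 0.07 (-0.09 to 0.22). The interval of Socs3 was the widest of the 10, from -0.54 to 0.19.

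The calls of Fcer2a, Cish, Bhlhe41 and Il2rg against DMSO held under all 15 alternatives run for each comparison, and that of Socs1 held with tazemetostat. Il4ra and Socs3 depended on single libraries, as the plot of alternatives shows. With valemetostat the rise of Il4ra was not called without DMSO 1 (edgeR adjusted p = 0.0988), DMSO 3 (0.088) or valemetostat 2 (0.148), or by limma-trend on log2(TPM + 1), with an adjusted p of 0.438. With tazemetostat Il4ra was called at 0.23 without tazemetostat 1 (edgeR adjusted p = 0.0253) and at 0.21 with the length and GC offset (0.0385). Socs3 with valemetostat went to 0.32 without valemetostat 3 (edgeR adjusted p = 0.191) and was not called without DMSO 1 (0.0564). By limma-trend Socs3 was not called with either inhibitor, at differences of 0.46 and 0.39 in log2(TPM + 1) (adjusted p = 0.0785 and 0.127). The added 1 shrinks differences at low levels, and Socs3 was at 2.03 TPM in DMSO, so these values are not log2 fold changes of TPM. Jak1 with valemetostat was called at 0.13 without DMSO 2 (edgeR adjusted p = 0.0445) and with the length and GC offset (0.00671). Small fold changes in these data moved with transcript length. Spearman's rho across 9040 genes, between length and a library's deviation from the mean, was 0.21 to 0.48 in DMSO, -0.44 to -0.01 with tazemetostat and -0.45 to -0.24 with valemetostat. The longest transcripts of the 10 genes ran from 1670 nt in Il2rg to 6133 nt in Bhlhe41. The offset moved Bhlhe41 to -0.59 and -0.58, Fcer2a to 1.29 and 1.24 and Cish to 1.12 and 1.29. With valemetostat Fcer2a was therefore above Cish as reported, at 1.32 and 1.26, and below it with the offset.

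**Figure D4:**
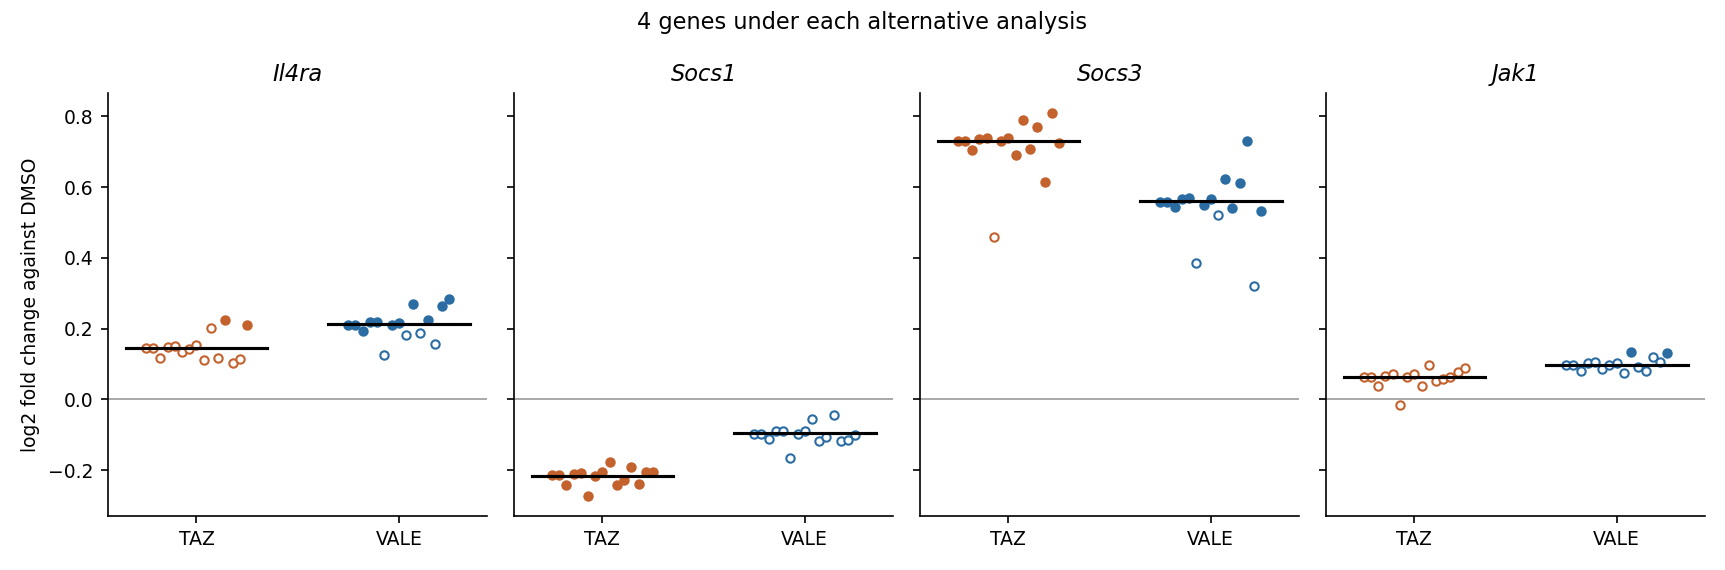
Log2 fold changes of Il4ra, Socs1, Socs3 and Jak1 against DMSO under 15 alternative analyses each (points; filled where the adjusted p is under 0.05) beside the reported value (line). Socs1 with tazemetostat is filled throughout, and Il4ra and Socs3 with valemetostat are filled in 11 and 12 of 15.

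The rest of the pathway was read from 10 lists, which hold 100 genes besides the members, 83 of them tested. Several other STAT genes were called while Stat6 was not. Stat4, which carries IL-12 signals, went from 19.3 ± 1.93 CPM in DMSO to 30.5 ± 1.48 with tazemetostat and 29.1 ± 1.30 with valemetostat, a log2 fold change of 0.67 ± 0.08 and 0.60 ± 0.08. Stat3, the main STAT of gp130 and IL-10 receptors, changed by 0.52 ± 0.06 and 0.45 ± 0.06, Stat5b by 0.31 ± 0.05 and 0.23 ± 0.05 and Stat5a by 0.28 ± 0.05 and 0.25 ± 0.05. Stat2, a factor of interferon signalling, changed by -0.26 ± 0.10 and -0.48 ± 0.11, and its tazemetostat call (edgeR adjusted p = 0.0480) was lost under 12 of 15 alternatives. By limma-trend on log2(TPM + 1), the valemetostat calls of Stat3 (0.124), Stat5b (0.214), Stat5a (0.470) and Stat2 (0.0978) were lost, by adjusted p, as was the tazemetostat call of Stat5a (0.473). The median difference of all tested genes in that setting was -0.068 with tazemetostat and -0.067 with valemetostat.

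Among partners on the receptor side, 10 of 14 genes were tested. With tazemetostat 4 were higher and 2 lower, and with valemetostat 3 were higher and 2 lower, against 38.1% and 39.2% of all genes called. The medians were -0.03 and -0.01. The remaining JAK family kinases moved in opposite directions. Jak2 rose from 35.8 ± 3.71 to 63.3 ± 2.58 and 56.3 ± 2.79 CPM, or 0.82 ± 0.07 and 0.65 ± 0.07 on the log2 scale. Tyk2, a kinase of interferon and IL-12 family receptors, went from 56.5 ± 2.36 to 41.3 ± 0.393 and 43.5 ± 1.57 CPM, at -0.45 ± 0.06 and -0.38 ± 0.06. Pik3r1, the regulatory subunit of PI3-kinase, changed by 0.88 ± 0.08 and 0.82 ± 0.08, and Ptpn6, the phosphatase SHP-1, by 0.25 ± 0.04 and 0.17 ± 0.04, where the valemetostat call was lost by limma-trend (adjusted p = 0.202). The adaptors Grb2 and Shc1 did not pass. Il13ra1, which replaces the γ chain in the other form of the IL-4 receptor, had 0 counts in DMSO and 17 and 23 counts in the inhibitor groups, too few to test. Irs1 and Irs2, substrates of the IL-4 receptor, had 0 counts in DMSO and valemetostat and at most 2 with tazemetostat.

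All 7 other cytokine receptor genes were tested, and 2 were higher and 2 lower with tazemetostat, 2 higher and 3 lower with valemetostat. Their median log2 fold changes were -0.01 and 0.14, and 38.1% and 39.2% of all genes were called. Il7r, the IL-7 receptor chain that pairs with the γ chain, changed by 1.30 ± 0.18 and 1.65 ± 0.18 from 2.63 ± 0.802 CPM, and Il2rb, shared by IL-2 and IL-15, by 0.60 ± 0.08 and 0.58 ± 0.08. Il21r, at 299 ± 2.46 CPM in DMSO, changed by -0.34 ± 0.04 and -0.31 ± 0.04, and Il9r by -0.33 ± 0.05 and -0.27 ± 0.05. Receptor chains that use the same γ chain therefore changed in both directions.

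Of the other SOCS genes and negative regulators, 11 of 11 were tested, with 3 higher and 3 lower with tazemetostat and 2 higher and 3 lower with valemetostat. The medians were 0.01 and -0.02, and 38.1% and 39.2% of all genes were called. Socs7 changed by -0.39 ± 0.07 and -0.37 ± 0.07, Socs4 by -0.26 ± 0.06 and -0.37 ± 0.07, and Socs5 by 0.72 ± 0.17 and 0.58 ± 0.17. Pias2, an inhibitor of activated STATs, changed by -0.27 ± 0.06 and -0.16 ± 0.06 and Socs2 by 0.27 ± 0.07 and 0.30 ± 0.07. By limma-trend on log2(TPM + 1), 2 of the 11 were called with each inhibitor, 0 of them higher. In that setting the median difference of all tested genes was also lower, at -0.068 and -0.067 against 0.00079 and 0.0073 by edgeR. The rise of Socs5 with valemetostat was also lost without DMSO 1 (edgeR adjusted p = 0.0771), and the change of Pias2 without DMSO 2 (0.161), DMSO 3 (0.104), valemetostat 1 (0.0614) or valemetostat 2 (0.169). Of 6 STAT6 cofactors, 1 was higher and 2 lower with tazemetostat, and 0 higher and 3 lower with valemetostat. These counts too stand against 38.1% and 39.2% of all genes, and the medians were -0.15 and -0.18. The coactivator Ncoa3 changed by -0.27 ± 0.05 and -0.23 ± 0.05 and the acetyltransferase Ep300 by -0.30 ± 0.09 and -0.37 ± 0.09. Its relative Crebbp changed by -0.36 ± 0.12 with valemetostat, and Parp14, a cofactor of STAT6, by 0.36 ± 0.11 with tazemetostat. Without DMSO 1 the tazemetostat calls of Ep300 (edgeR adjusted p = 0.0665) and Parp14 (0.0571) were lost, and Parp14 also without tazemetostat 2 (0.0515). Calls were also gained, for Crebbp with tazemetostat at -0.35 without tazemetostat 2 (edgeR adjusted p = 0.0167), and for Parp14 with valemetostat at 0.31 without valemetostat 2 (0.0490) and at 0.36 with the length and GC offset (0.00799). With that offset the valemetostat calls of Ncoa3 (0.0788) and Crebbp (0.226) were lost, and Crebbp also without DMSO 1, DMSO 2, valemetostat 1 or valemetostat 2 (0.0729, 0.0878, 0.101 and 0.122 by edgeR adjusted p).

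In the list of other IL-4 and STAT6 responsive genes, 18 of 26 were tested, and 11 were higher and 1 lower with each inhibitor, against 19.9% and 20.5% of all genes called higher. The medians were 0.29 and 0.34. By limma-trend on log2(TPM + 1), 7 were higher and 1 lower with tazemetostat, and 8 higher and 1 lower with valemetostat. Ccl17 and Mrc1, both among the 11 called higher by edgeR, passed the filter on low counts only through the inhibitor libraries. At their DMSO levels they could be tested only if they rose. Ccl22, a chemokine of activated B cells, was at 5294 ± 121 CPM in DMSO and changed by 0.49 ± 0.04 and 0.43 ± 0.04. Batf, a factor needed for class switching, changed by 0.49 ± 0.05 and 0.36 ± 0.05, and Nfil3, a leucine zipper factor induced by IL-4, by 0.37 ± 0.04 and 0.39 ± 0.04. Ccl17 changed by 2.10 ± 0.48 and 2.35 ± 0.48 from 0.205 ± 0.0650 CPM. Mrc1, a macrophage mannose receptor, had 7 counts in the DMSO libraries together and 96 and 82 in the inhibitor groups, a ratio of 12.9 (counting interval 6.05 to 33.1) and 12.4 (5.78 to 31.9). Its calls were lost by limma-trend on log2(TPM + 1), at an adjusted p of 0.0649 and 0.0708. Mrc1 was at 0.013 TPM in DMSO and 0.18 TPM with each inhibitor. At such levels the added 1 left differences of 0.22 and 0.22, against log2 fold changes of 3.67 and 3.60 by edgeR. The immunoglobulin constant region genes Ighg1 and Ighe did not pass, at 0.21 ± 0.14 and 0.05 ± 0.14 with tazemetostat and 0.26 ± 0.14 and 0.31 ± 0.14 with valemetostat. With valemetostat, however, Ighg1 was called at 0.43 without valemetostat 1 (edgeR adjusted p = 0.0149), and Ighe at 0.38 without DMSO 3 (0.0464) and at 0.40 without valemetostat 2 (0.0419). Irf4, a factor of activated B cells and the gene called lower, changed by -0.29 ± 0.05 and -0.30 ± 0.05. Bcl6, Pparg, Cdh1, Retnla and Chil3 were at 0 counts in all libraries.

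STAT5 responsive genes were included because Cish is also a target of STAT5. All 9 were tested, with 5 higher and 1 lower with tazemetostat and 4 higher and 2 lower with valemetostat. Of all genes, 38.1% and 39.2% were called. The medians of the list were 0.16 and 0.09. By limma-trend on log2(TPM + 1), 2 and 3 of the 9 were called. Ccnd2, cyclin D2, rose from 102 ± 2.48 to 177 ± 1.91 and 169 ± 7.98 CPM, or 0.79 ± 0.05 and 0.73 ± 0.05. Pim1, a survival kinase, changed by -0.21 ± 0.05 and -0.28 ± 0.05 and its relative Pim2 by 0.17 ± 0.04 and 0.17 ± 0.04. Both Pim2 calls were lost by limma-trend (adjusted p = 0.308 and 0.282). Bcl2l1, which encodes the survival factor BCL-XL, changed by 0.24 ± 0.05 with tazemetostat and was lower with valemetostat than with tazemetostat, at -0.27 ± 0.05 (edgeR adjusted p = 0.00759). That difference was not called without tazemetostat 1 (0.147), valemetostat 1 (0.105) or valemetostat 2 (0.0856), nor by limma-trend (0.669). Limma-trend also lost the call of Bcl2l1 with tazemetostat against DMSO (adjusted p = 0.178). Of receptor chains of the gp130 and IL-10 families, whose signals Socs3 can restrain, 4 of 8 were tested. With tazemetostat 1 was higher and 1 lower, and with valemetostat 2 higher and 0 lower, against 38.1% and 39.2% of all genes. The medians were 0.03 and 0.14. Lifr, Osmr and Lepr were at 0 counts in all libraries. Il10ra changed by 0.58 ± 0.22 and 0.67 ± 0.22, Il10rb by -0.22 ± 0.08 with tazemetostat and Il6ra by 0.40 ± 0.11 with valemetostat. With tazemetostat 0 of this list were called without DMSO 1, and 1 without any of the other DMSO or tazemetostat libraries. With valemetostat 1 was called without DMSO 1, valemetostat 2 or valemetostat 3. Il10rb with valemetostat, at -0.20 ± 0.08, was just short of the threshold (edgeR adjusted p = 0.0530). It was called at -0.32 without valemetostat 1 (0.00323). Calls also came with library totals without TMM (0.0433), no filter (0.0387), the replicate block (0.0345) and the length and GC offset (0.0142). Limma-trend on log2(TPM + 1) called it as well (adjusted p = 0.0429). Il6ra with tazemetostat was called at 0.31 with the length and GC offset (edgeR adjusted p = 0.0233).

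Bhlhe40, the close relative of Bhlhe41, moved the opposite way. It went from 202 ± 12.7 CPM in DMSO to 311 ± 7.16 with tazemetostat and 250.01 ± 9.09 with valemetostat, a log2 fold change of 0.62 ± 0.05 and 0.30 ± 0.05. The inhibitors differed for Bhlhe40 by -0.31 ± 0.05 (edgeR adjusted p = 0.00186), 1 of 40 genes called between them. By limma-trend on the TPM scale that difference was not called (adjusted p = 0.404). In the list of Bhlhe40 and clock genes, which has 10, 2 were higher and 3 lower with tazemetostat and 2 higher and 4 lower with valemetostat. This stands against 38.1% and 39.2% of all genes called, and the medians were -0.05 and 0.02. Limma-trend called 2 of the 10 with each inhibitor, and edgeR called 3 with tazemetostat when tazemetostat 2 was left out. Cry2, a clock repressor, changed by -0.49 ± 0.08 and -0.35 ± 0.08, Clock, an activator of the circadian loop, by -0.59 ± 0.16 and -0.53 ± 0.16, and the nuclear receptor gene Nr1d2 by 0.32 ± 0.09 and 0.27 ± 0.09. The period genes Per2 and Per1 changed by -0.49 ± 0.10 and -0.26 ± 0.08 with valemetostat. Limma-trend lost both of these calls (adjusted p = 0.424 and 0.244). Per2 was also called lower with tazemetostat, at -0.26 (edgeR adjusted p = 0.0462). That call was lost when any single DMSO or tazemetostat library was left out. It was also lost by limma-trend, where the difference was 0.28 (adjusted p = 0.585). The valemetostat calls of Clock and Nr1d2 depended on single libraries, since Clock was not called without DMSO 2 (edgeR adjusted p = 0.0978) or valemetostat 2 (0.0862) and Nr1d2 not without valemetostat 3 (0.213), DMSO 1 (0.0598) or DMSO 3 (0.0581). With tazemetostat, Nr1d2 was not called without tazemetostat 2 (0.0522). Per1 was not called with valemetostat without DMSO 1 (0.0514) or DMSO 2 (0.0725), and was called with tazemetostat, at -0.20, without DMSO 3 (0.0189).

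Of 6 genes listed as partners of CD23 or as other Fc receptors, 5 were tested, with 4 higher and 1 lower with each inhibitor. Of all genes, 38.1% and 39.2% were called. The medians were 0.72 and 0.63. Cr2 and Fcer1a passed the filter on low counts only through the inhibitor libraries. At their DMSO levels they could be tested only if they rose, and the counts and medians include them. Cr2, the complement receptor CD21, had 3 counts in the DMSO libraries, all in DMSO 1, against 230 with tazemetostat and 290 with valemetostat. The ratios were 72.4 (counting interval 24.5 to 354) and 103 (34.8 to 501). Fcer1a, the α chain of the high-affinity IgE receptor, had 7 counts, all in DMSO 2, against 453 and 292, a ratio of 61.1 (29.4 to 153) and 44.3 (21.2 to 111). Its β chain gene Ms4a2 had 3 counts in all libraries together. Fcgr2b, the inhibitory IgG receptor, changed by 0.72 ± 0.13 and 0.63 ± 0.13, and Fcer1g, the shared signalling chain, by 0.44 ± 0.07 and 0.22 ± 0.07. The Fcer1g call with valemetostat was lost with the length and GC offset (edgeR adjusted p = 0.895) and without DMSO 1 (0.0895). Adam10, the protease that sheds CD23, changed by -0.17 ± 0.05 and -0.14 ± 0.05. Its call was lost without tazemetostat 3 (edgeR adjusted p = 0.0562) and, with valemetostat, without DMSO 1 (0.0676), DMSO 2 (0.0897) or valemetostat 3 (0.0800).

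**Figure D5:**
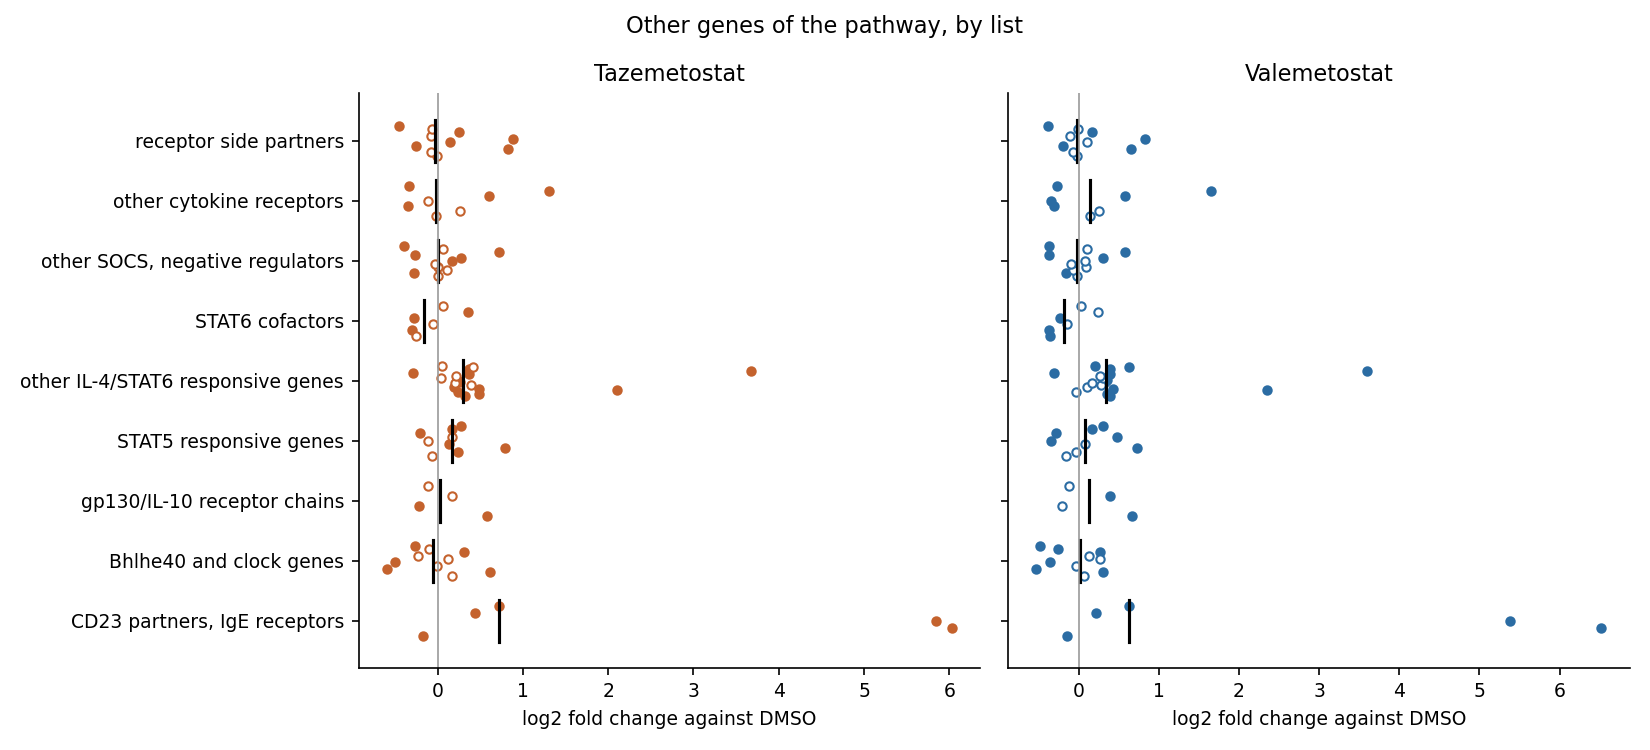
Log2 fold changes against DMSO of the tested genes in 9 of the lists (points; filled where the adjusted p is under 0.05), with the list median as a vertical bar. The medians of the IL-4 responsive and CD23 partner lists lie at 0.29 or above with both inhibitors, and Cr2 and Fcer1a lie far to the right. Cr2, Fcer1a, Ccl17 and Mrc1 passed the filter on low counts only through the inhibitor libraries.

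The genes whose levels followed the targets most closely were found by Pearson's r of log2 CPM over the 9 libraries, among 9046 genes with a mean of at least 3 log2 CPM. These libraries share the split between DMSO and inhibitors, which many genes follow, so r is a description. Fcer2a was most like Kdm5b, Azin2 and Maged1 (r = 0.998, 0.997 and 0.997). Cish was most like Tox, Bin2 and Serpinb6b (r = 0.995 for each), and Tox, a transcription factor of lymphocytes, rose by 1.06 and 1.15, close in size to Cish. Bhlhe41 was most like Irf8, Phlpp2 and Rock2 (r = 0.994, 0.984 and 0.982), and Irf8, a B cell and myeloid transcription factor, changed by -0.79 and -0.85.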

How the data were processed

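Poly(A) RNA from 9 libraries was sequenced as read pairs, per the labels' protocols. The authors deposited whole-number counts per gene and library and a table of log2 values. Raising 2 to those log2 values and subtracting 1 gave TPM in whole hundredths in 100% of values (tolerance 1e-06), so the deposited table holds log2(TPM + 1). Per the submitters' processing notes, the genome build was mm9. For the aligner, the counting program, the use of strand and the annotation, nothing is stated in the sources used here.

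Counts were tested with edgeR 4.0.16 in R 4.3.3 (TMM, robust quasi-likelihood F test, 1 fit of all 9 libraries in 3 groups) after filterByExpr (minimum count 10, minimum total 15). Standard errors were taken as the size of the log2 fold change divided by the root of its F value. Levels per transcript length are the authors' TPM. The script was tested on simulated data. Alternatives were DESeq2 1.42.0, other scalings and filters, limma-trend 3.58.1 on log2(TPM + 1), a replicate block, fits of 2 groups, leaving out each library, and an offset per library (splines with 5 degrees of freedom on transcript length and GC content, from GENCODE M21, covering 99.8% of tested genes). The offset was fitted on genes with a mean of at least 3 log2 CPM. The same alternatives for the pathway lists were chosen after seeing the data. From each list the genes named are up to 4 called ones with the smallest p and those changed at least 2-fold. Others named were chosen after their values were seen, and some listed genes are not reported here. Ratios from few counts have exact 95% intervals that cover counting error only. The members and lists were chosen with earlier results of these data known. Replicates are not stated to be separate cultures, so p-values reflect only how these libraries vary, which may be technical variation. No replicate pair agreed within sampling noise (chi-square per degree of freedom 5.27 to 13.5). Counts of overlapping genes and near-identical copies (MHC, immunoglobulin) are uncertain.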

Additional observations from a re-analysis of the deposited data

How the results depend on the processing

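Of 150 values of the 10 genes per comparison (15 alternatives each), 147 kept their side of the threshold with tazemetostat, 141 with valemetostat and 150 between the inhibitors, and none of a called gene reversed. The count of the 10 genes called ran from 5 to 7 with tazemetostat and from 4 to 7 with valemetostat, and was 0 between the inhibitors throughout. Over all genes, limma-trend on log2(TPM + 1) called 3123 with tazemetostat (1177 higher, 1946 lower) against 4794 (2508 higher, 2286 lower), and with valemetostat 1191 higher and 2117 lower against 2577 and 2350. The median difference of all tested genes was -0.068 and -0.067 by limma-trend, against 0.00079 and 0.0073 by edgeR. The cause was not tested. Between the inhibitors 40 genes were called, 75 with DESeq2, 93 with no filter, 81 with the length and GC offset, 1 on log2(TPM + 1) values, and 9 to 73 when 1 library was left out, where valemetostat 2 gave 9, tazemetostat 1 gave 11, valemetostat 1 gave 13, tazemetostat 2 gave 19 and tazemetostat 3 gave 73. Same-numbered libraries did not deviate together (r from -0.22 to 0.23, and 4 of 18 correlated best with their own number). With the replicate block 4527, 4713 and 32 genes were called, and 6, 6 and 0 of the 10. At 125 to 298 counts per library, the 95% interval of Socs3 spans 0.36 to 1.11 with tazemetostat.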
